A study of Mus musculus with 8 samples.

Results

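The 9 genes described here are used as markers or regulators of conventional and plasmacytoid dendritic cells, and were followed in mouse lung: *Xcr1*, *Clec9a*, *Flt3*, *Zbtb46*, *Batf3*, *Irf4*, *Irf8*, *Siglech* and *Fscn1*. They were taken by symbol from the Ensembl identifiers of the count files, and all 9 were found among 55416 genes. RNA was sequenced from lung tissue of 8 mice, taken from a single side, to ask how endotoxic shock changes lung transcripts, and how the changes differ when the protein arginine deiminase inhibitor YW3-56 is given before endotoxin. Each library held between 19061949 and 20908608 counts. The mice were females of 6 to 8 weeks, given as C57BL/6 in the labels and as C57BL/6J in the methods, and all lungs were taken at 24 h. The control group (mice 1, 2 and 4) received the solvent DMSO by vein and then saline in the abdomen. The LPS group (mice 1, 6 and 7) received lipopolysaccharide at 35 mg/kg, and no DMSO is stated for it in the methods. The dual group (mice 2 and 5) received YW3-56 at 10 mg/kg in DMSO and then the same LPS dose. No group received YW3-56 alone, so its own effect on these genes and its effect on the response to LPS cannot be told apart. The lung markers were present in every library, with a summed level from 40940 to 93150 CPM (counts scaled to the normalized library size, with the same constant for all libraries) and *Scgb1a1* as the most abundant gene.

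Dendritic cells take up antigen in tissues and present it to T cells. Conventional type 1 cells depend on BATF3 and IRF8 and cross-present antigen of dying cells, type 2 cells depend more on IRF4, and plasmacytoid cells are known for type I interferon. FLT3 ligand maintains the whole lineage, and after a microbial stimulus conventional cells mature and move to the draining lymph node.

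With LPS, *Batf3*, *Irf8* and *Fscn1* rose and *Xcr1*, *Clec9a*, *Flt3* and *Zbtb46* fell against control. These were 3 and 4 of the 9 members at a Benjamini-Hochberg adjusted p under 0.05 in edgeR's quasi-likelihood test, while 32.6% of all 18560 tested genes were higher and 33.9% were lower. In the dual group, *Fscn1* was higher and *Xcr1*, *Clec9a* and *Siglech* were lower than in control. These were 1 and 3 of the 9 members, against 9.13% and 7.02% of all tested genes. That count fell to 1 member without dual mouse 2 and to 2 without control mouse 2 or control mouse 4, where *Siglech* was not tested, and reached 5 without LPS mouse 1 or LPS mouse 7. Among the members lower than in control, *Xcr1* and *Siglech* had at most 2 counts in each dual library. The value of *Clec9a* is uncertain for a reason given below. Compared with LPS alone, 2 members were higher and 4 lower in the dual group, against 31.7% and 27.4% of all tested genes. All 9 members passed the filter on low counts. In both comparisons with the LPS group, most tested genes differed, and the members' counts are given as a description. Fewer cells of a type and less RNA per cell cannot be told apart in these bulk samples.

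**Figure D1:**
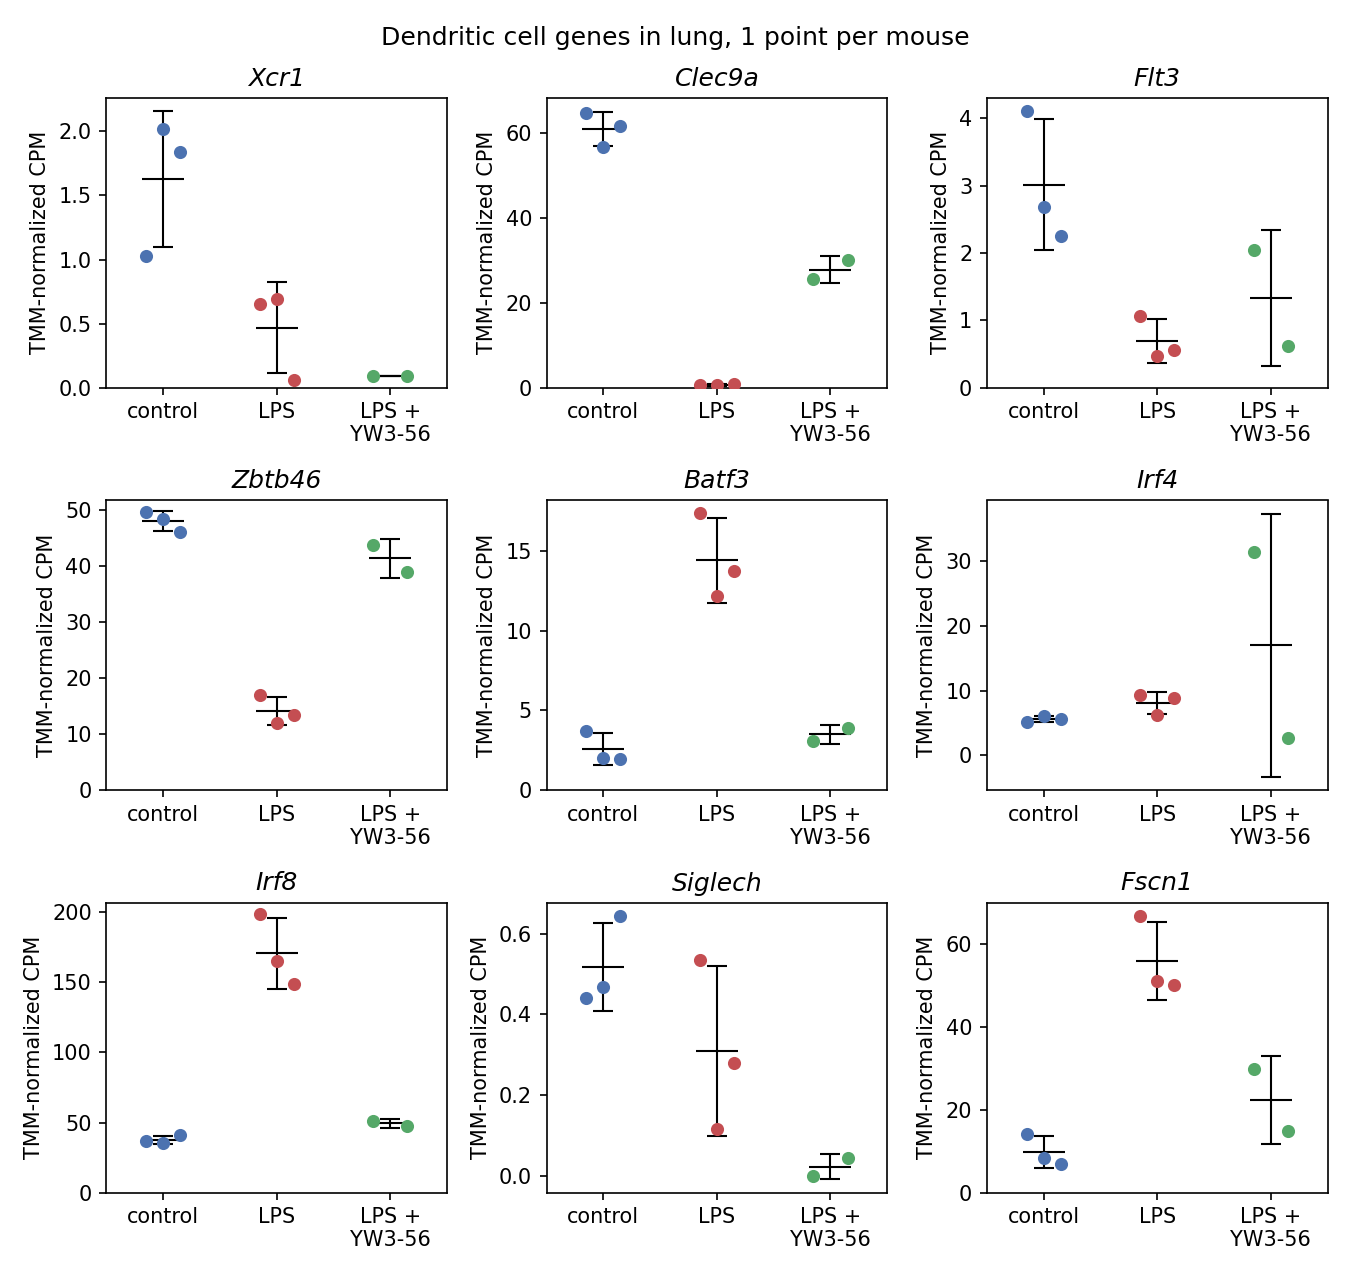
Level of each gene in every mouse, as TMM-normalized CPM on a linear axis, with 1 point per mouse and the group mean ± SD as black lines (n = 3, 3 and 2). *Irf8*, *Batf3* and *Fscn1* were highest in the LPS mice, *Clec9a* was lowest in them, and the dual mice differed from each other most for *Irf4*, with 31.4 and 2.59 CPM.

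*Xcr1*, the chemokine receptor of type 1 cells that binds XCL1, lies on chromosome 9 (GRCm39, chr9:123681380-123691094, minus strand). It was at 1.03, 2.02 and 1.84 CPM in control mice 1, 2 and 4. In LPS mice 1, 6 and 7 it was at 0.653, 0.693 and 0.0558 CPM, the last of which was 1 count. Dual mice 2 and 5 were at 0.0908 and 0.0878 CPM, or 2 counts each. Every LPS and dual mouse was under the lowest control mouse, and LPS mouse 7 lay under both dual mice. The log2 fold change with LPS was -1.80 (SE 0.64, adjusted p = 0.0301). This call was lost without control mouse 2 (-1.62, adjusted p = 0.0863), without control mouse 4 (-1.70, adjusted p = 0.0782) and with LPS mice 6 and 7 both left out (-1.31, adjusted p = 0.113). These LPS mice also carried squamous epithelium genes, with *Krt4* the most abundant in mouse 6 and *Krt13* in mouse 7 and a summed level of 692 and 1956 CPM against 1.13 in LPS mouse 1, and skeletal muscle genes, with *Acta1* the most abundant in both and 545 and 1393 CPM against 21.4. The part of such tissue in the result was not tested beyond leaving these mice out. Control was 18.4-fold above the dual group (95% counting interval 6.96 to 68.6, from 104 and 4 counts; adjusted p = 0.0148). Without dual mouse 2 or dual mouse 5 that adjusted p was 0.0917 or 0.0554. LPS was 5.16-fold above the dual group (1.77 to 20.5, from 24 and 4 counts), with an adjusted p of 0.0631. This difference passed without LPS mouse 7 (adjusted p = 0.00582), with LPS mice 6 and 7 left out (0.0218), without a filter on low counts (0.0364) and with DESeq2 (0.0462). Intervals and floors cover counting error alone. The ligand gene *Xcl1* was at most 0.356 CPM in all 8 mice and was not tested.

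*Clec9a* encodes the lectin by which type 1 cells sense actin filaments of dead cells (chr6:129385825-129401726, plus strand). Its level was 64.6, 56.5 and 61.4 CPM in the control mice. LPS mice 1, 6 and 7 had 0.534, 0.52 and 0.781 CPM, or 9, 9 and 14 counts. The dual mice had 25.5 and 30.0 CPM. The 3 groups did not overlap, with control highest and LPS lowest. It fell by 6.62 on the log2 scale with LPS (SE 0.17, adjusted p = 8.37e-08) and by 1.13 in the dual group (SE 0.13, adjusted p = 0.000743), and the dual group was 5.48 above LPS (SE 0.18, adjusted p = 3.18e-07). Its value is uncertain, since 77.1% of its annotated exon bases are shared with exons of *Clec1a*, which lies on the opposite strand, and 5.59% with *Clec1b*. The strand setting of the counting was not given in the sources used here. *Clec1a* had 3568, 3989 and 3669 counts in the control mice, 36, 24 and 39 in LPS mice 1, 6 and 7, and 2118 and 2731 in the dual mice. The ratio of *Clec9a* to *Clec1a* counts stayed between 0.25 and 0.375 in all 8 mice, although both genes ranged widely. *Xcr1*, the other receptor of type 1 cells, had 2 counts in each dual library and was not higher in the dual than in the LPS group. Of 12 other genes linked to type 1 cells, 3 were higher and 5 lower in that comparison, against 31.7% and 27.4% of all tested genes. The 3 higher were *Snx22*, *Rab7b* and *Wdfy4*, which were lower with LPS than in control. The 5 lower were *Tlr3*, *Id2*, *Nfil3*, *Cxcl9* and *Tap1*, which were higher with LPS than in control. Both comparisons share the LPS mice. Exons of *Xcr1*, *Zbtb46*, *Batf3* and *Fscn1* also overlap exons of opposite-strand genes in GENCODE M39 for which no counts were used here, and *Flt3* overlaps one with 0 counts, so a share of antisense reads in their values cannot be told apart.

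**Figure D2:**
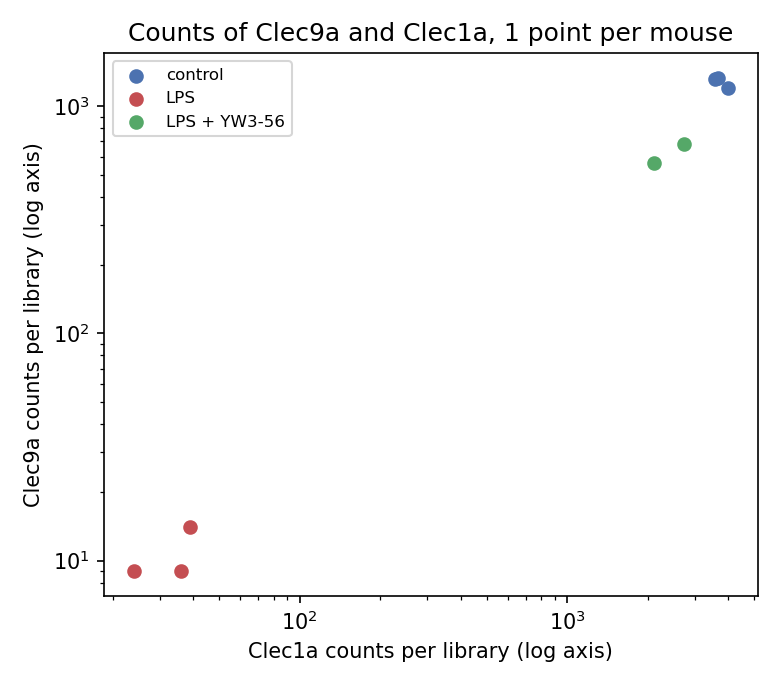
Raw counts of *Clec9a* against those of *Clec1a* in each library, both on log axes, with 1 point per mouse and colours for the groups. The LPS libraries lie at 9 to 14 counts of *Clec9a* and 24 to 39 of *Clec1a*, far under the control and dual libraries for both genes.

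*Flt3*, the receptor for FLT3 ligand, was at 4.11, 2.68 and 2.25 CPM in the control mice. In LPS mice 1, 6 and 7 it was at 1.07, 0.462 and 0.558 CPM. Dual mice 2 and 5 had 2.04 and 0.615 CPM, so that the first was near control and the second lay within the LPS range. Its log2 fold change with LPS was -2.11 (SE 0.51, adjusted p = 0.00514). With LPS mice 6 and 7 left out it was -1.48 and no longer passed the threshold. The dual group did not pass the test against control (-1.18, SE 0.54, adjusted p = 0.179) or against LPS (0.93, SE 0.57, adjusted p = 0.189). The latter value was -0.19 without dual mouse 2 and 1.53 (adjusted p = 0.0408) without dual mouse 5. The ligand gene *Flt3l* was at 29.6, 33.0 and 33.4 CPM in control, 5.46, 4.62 and 4.02 in LPS and 17.0 and 22.5 in dual lungs. It fell by 2.77 with LPS (SE 0.16, adjusted p = 1.34e-06) and was 2.07 higher in the dual group than with LPS (SE 0.17, adjusted p = 1.57e-05).

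*Zbtb46* encodes a zinc finger factor of conventional dendritic cells that is also made by endothelium (chr2:181012111-181104879, minus strand). The control mice had 49.7, 48.4 and 46.1 CPM. LPS mice had 17.0, 12.1 and 13.5 CPM, and the dual mice 43.8 and 39.0 CPM. LPS mice were lower than all others, and the dual mice lay just under the control range. It fell by 1.76 with LPS (SE 0.13, adjusted p = 4.15e-06) and was 1.55 higher in the dual group than with LPS (SE 0.14, adjusted p = 2.62e-05), while the difference from control was -0.21 (SE 0.14, adjusted p = 0.347). Of 9 endothelial markers, 7 were lower with LPS and none higher, with a median log2 fold change of -2.60 against -0.01 over all tested genes, and 7 were higher in the dual group than with LPS, with a median of 2.12 against 0.06. Their summed level was 3918, 4085 and 4322 CPM in control, 2184, 1796 and 1765 in LPS and 3655 and 3804 in dual lungs, and the most abundant gene was *Egfl7* in control, *Cdh5* in LPS and *Pecam1* in dual lungs. *Cdh5* (0.17, adjusted p = 0.382) and *Cldn5* (-0.02, adjusted p = 0.873) were the markers that did not pass with LPS. The part of endothelial RNA in the values of *Zbtb46* and *Clec9a* was not tested.

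*Batf3*, the bZIP factor that keeps the type 1 programme, was at 3.72, 2.02 and 1.93 CPM in control mice. It was at 17.4, 12.2 and 13.7 CPM in LPS mice, and at 3.09 and 3.91 CPM in dual mice. All LPS mice were above all others, and the control and dual ranges overlapped. With LPS its log2 fold change was 2.497 (SE 0.28, adjusted p = 4.57e-05), and the dual group was at -2.04 against LPS (SE 0.32, adjusted p = 0.00052). Against control the dual group was at 0.45 (SE 0.31, adjusted p = 0.369). The part of dendritic cells and of other cells in the *Batf3* values was not tested.

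*Irf8* encodes the interferon regulatory factor of type 1 and plasmacytoid cells, which monocytes, macrophages and B cells also make. Control mice had 37.1, 35.3 and 41.0 CPM. LPS mice 1, 6 and 7 had 198, 165 and 149 CPM. In the dual mice 51.4 and 47.2 CPM were found, above the control range and far under the LPS range. It rose by 2.17 with LPS (SE 0.12, adjusted p = 1.12e-06), and the dual group was at -1.79 against LPS (SE 0.14, adjusted p = 1.21e-05). The difference between dual and control was 0.38 (SE 0.13, adjusted p = 0.0834). It passed the test without LPS mouse 1 (adjusted p = 0.0375) or LPS mouse 7 (adjusted p = 0.0464), with LPS mice 6 and 7 left out (0.0337), with library size only (adjusted p = 0.029), and when only the 2 groups were fitted (adjusted p = 0.0293). Of 9 IRF genes, 5 were higher and 3 lower with LPS, and *Irf7*, which drives interferon production, was the highest of them by fold with 4.87 (SE 0.23, adjusted p = 5.54e-07). In dual against control lungs 3 were higher and 1 lower, with *Irf7* at 3.39 (SE 0.22, adjusted p = 3.95e-05). *Irf1*, an early interferon response factor, rose by 2.68 with LPS (SE 0.17, adjusted p = 2.04e-06) and was at -0.26 in dual against control lungs (SE 0.19, adjusted p = 0.394). Among 9 monocyte markers, 5 were higher and 4 lower with LPS, and 6 were higher and none lower in dual against control lungs. Their summed level was 1321, 1205 and 1494 CPM in control, 882, 534 and 531 in LPS and 1432 and 2088 in dual lungs, with *Ace* the most abundant in control and dual and *Nr4a1* in LPS lungs. Without *Ace* the sum was 217, 198 and 225 CPM in control, 781, 474 and 440 in LPS and 509 and 819 in dual lungs, so that the LPS mice were then above control. Without *Nr4a1* as well it was 155, 151 and 174 CPM in control, 176, 205 and 142 in LPS and 433 and 670 in dual lungs, so that the control and LPS ranges overlapped. The part of these cells in the *Irf8* values was not tested, nor was the part of other cells in the *Ace* and *Nr4a1* values.

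*Irf4* encodes the factor of type 2 and migrating dendritic cells, and also of B, plasma and T cells. It was at 5.14, 6.05 and 5.66 CPM in control mice. LPS mice had 9.37, 6.18 and 8.82 CPM, all above the highest control mouse, mouse 6 only narrowly. The dual mice stood at the extremes, with 31.4 CPM in mouse 2 and 2.59 CPM in mouse 5. No comparison passed the test with all libraries, at 0.53 with LPS (SE 0.65, adjusted p = 0.491), 1.60 in dual against control lungs (SE 0.70, adjusted p = 0.158) and 1.06 against LPS (SE 0.70, adjusted p = 0.214). The LPS value passed without dual mouse 2 (adjusted p = 0.0437), without dual mouse 5 (0.032) and when only the 2 groups were fitted (0.0358). Without a filter on low counts the dual group passed against control (adjusted p = 0.00852) and against LPS (0.0405). Without dual mouse 2 the dual group was at -1.14 against control (adjusted p = 0.0672) and at -1.67 against LPS (adjusted p = 0.00236). Without dual mouse 5 these were 2.45 (adjusted p = 0.000249) and 1.93 (adjusted p = 0.000272), so that the direction followed the mouse that was left. The 10 B cell markers summed to 104 CPM in dual mouse 2 and 46.0 in mouse 5, against 65.4, 66.7 and 65.8 in control and 49.3, 47.6 and 35.8 in LPS lungs, where 4 were lower and none higher than in control, with *Cd79a* the most abundant in dual mouse 2 and *Cd79b* in the other 7 mice. The 6 plasma cell markers summed to 262 and 232 CPM in the dual mice, against 241 to 268 in control and 343 to 400 in LPS lungs. Most of each sum was *Sdc1*, which epithelium also makes. Without *Sdc1* the sums were 65.85 CPM in dual mouse 2 and 14.2 in mouse 5, against 30.3 to 40.0 in control and 38.5 to 50.7 in LPS lungs. The antibody-secreting cell genes *Mzb1* and *Derl3* were at 9.62 and 14.6 CPM in dual mouse 2 and at 1.54 and 1.84 in mouse 5. They were at 1.195 to 2.74 and 1.83 to 2.25 CPM in control, and at 0.1675 to 0.866 and 1.07 to 1.27 in LPS lungs. Lymph node and follicle genes summed to 171 and 76.8 CPM in the dual mice, against 49.8 to 52.5 in control and 60.8 to 85.0 in LPS lungs, with *Ccl21a* the most abundant in control and *Cxcl13* in LPS and dual lungs. Without *Cxcl13* the dual sums were 15.5 and 23.1 CPM, under control at 43.4 to 49.3. *Ccl21a* was at -1.845 in dual against control lungs (SE 0.37, adjusted p = 0.0104). Without *Ccl21a* as well, the sums were 10.03 CPM in dual mouse 2 and 6.278 in mouse 5. They were 5.839 to 7.603 CPM in control and 8.931 to 15.42 in LPS lungs. Dual mouse 2 was then above the control range and mouse 5 within it. *Fdcsp* had 0 counts in every library and *Glycam1* at most 2. The part of B-lineage or lymphoid RNA in the *Irf4* value was not tested.

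*Siglech* encodes the sialic acid-binding lectin of plasmacytoid cells. It had 9, 10 and 14 counts in control mice, 9, 2 and 5 in LPS mice 1, 6 and 7, and 0 and 1 in dual mice 2 and 5. As CPM these were 0.440, 0.469 and 0.644 in control, 0.534, 0.116 and 0.279 in LPS, and 0 and 0.0439 in dual lungs. The control and LPS ranges overlapped, and both dual mice were lower than all others. The LPS change was -0.74 (SE 0.64, adjusted p = 0.326), and 0.05 with LPS mice 6 and 7 left out. Control was 23.3-fold above the dual group (95% counting interval 3.9 to 947, from 33 and 1 counts; adjusted p = 0.0247), and this call was lost without dual mouse 2 (adjusted p = 0.159) or control mouse 1 (adjusted p = 0.0512). Without control mouse 2 or control mouse 4 the gene did not pass the filter and was not tested in any comparison, and DESeq2 gave no adjusted p for dual against control lungs. LPS was 13.8-fold above the dual group (2.14 to 577, from 16 and 1 counts; adjusted p = 0.0227), lost without dual mouse 2 (adjusted p = 0.114), LPS mouse 1 (adjusted p = 0.0647) and with DESeq2 (adjusted p = 0.0522). Of 12 tested genes in a list for plasmacytoid cells, 7 were higher and 1 lower with LPS. Among the 7 was *Ly6d*, a surface protein gene that squamous epithelium also uses, at 9.37 CPM in LPS mouse 1 and 48.1 and 80.0 in mice 6 and 7, the mice with high sums of squamous genes. In dual against control lungs, where *Siglech* was lower, 3 of them were higher, none was lower and 9 were not called. The most abundant was *Tcf4* in control and *Irf7* in LPS and dual lungs, and many cells make *Irf7* and *Bst2* in response to interferon. *Bst2* rose by 2.10 with LPS (SE 0.20, adjusted p = 1.35e-05), and *Tcf4*, the factor on which plasmacytoid cells depend, was at -0.28 (adjusted p = 0.0804).

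*Fscn1* encodes an actin-bundling protein of mature migrating dendritic cells, also made by endothelium and neurons. It was at 14.0, 8.40 and 6.85 CPM in control mice. LPS mice had 66.8, 51.0 and 50.01 CPM, and the dual mice 29.9 and 14.9 CPM. LPS mice were above all others, and the dual mice were above the control range, mouse 5 only narrowly. It rose by 2.52 with LPS (SE 0.31, adjusted p = 8.13e-05). The rise in the dual group was 1.20 against control (SE 0.33, adjusted p = 0.0391), which became 0.58 (adjusted p = 0.377) without dual mouse 2, 1.10 (adjusted p = 0.122) without control mouse 2, 0.97 (adjusted p = 0.124) without control mouse 4 and 1.20 (adjusted p = 0.0525) without LPS mouse 6. It also missed the threshold with LPS mice 6 and 7 left out (adjusted p = 0.0546) and when only the 2 groups were fitted (0.0522). Against LPS it was at -1.32 (SE 0.34, adjusted p = 0.00826), or -0.92 (adjusted p = 0.0525) without dual mouse 5. Of 16 tested genes of mature migrating cells, 12 were higher and 3 lower with LPS, with a median log2 fold change of 1.34, and 3 were higher and 9 lower in dual against LPS lungs, with a median of -0.95 against 0.06 over all tested genes. *Ccl22*, a chemokine for T cells, was at 8.76, 7.09 and 8.001 CPM in control, 98.5, 84.7 and 69.3 in LPS and 5.45 and 4.13 in dual lungs. The homing receptor *Ccr7* rose by 3.99 with LPS (adjusted p = 2.47e-05) and was at -3.20 in dual against LPS lungs (adjusted p = 0.000307).

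**Figure D3:**
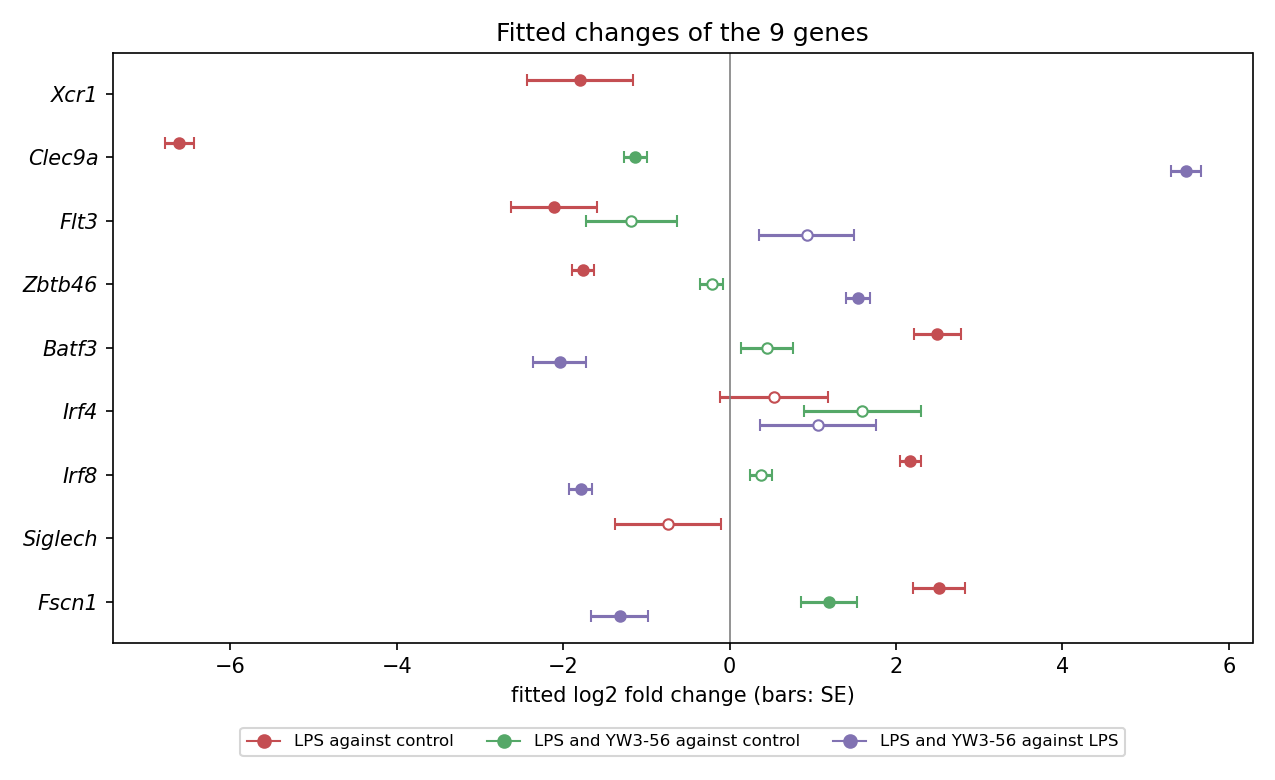
Fitted log2 fold change of each gene with its standard error as bars, in 3 comparisons, filled where the adjusted p was under 0.05 and open otherwise. The comparisons of *Xcr1* and *Siglech* with the dual group are left out because both dual libraries had at most 3 counts. *Clec9a* had the lowest value with LPS, at -6.62.

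Per kilobase of annotated exons, the level in control lungs was highest for *Clec9a*, at 18.5 ± 1.23 CPM per kb (SD, n = 3), counted with the overlap given above. *Irf8* (3.89 ± 0.298), *Fscn1* (3.23 ± 1.25) and *Zbtb46* (2.94 ± 0.11) followed, and *Fscn1* did not differ from the other 2 beyond its spread. *Batf3*, *Irf4*, *Flt3*, *Xcr1* and *Siglech* were lower, down to 0.106 CPM per kb. In LPS lungs *Fscn1* (18.5 ± 3.11) and *Irf8* (17.6 ± 2.61) were highest and did not differ beyond their spread, and *Clec9a* was at 0.186 CPM per kb. With the length of the canonical transcript, an alternative chosen after the data were seen, *Zbtb46* moved up to 9.02 CPM per kb in control lungs, above *Irf8* at 7.46, and in LPS lungs *Irf8* (33.6) was above *Fscn1* (20.8) and *Batf3* (18.0).

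The counts in lists of other genes of the lineage stand beside 32.6% higher and 33.9% lower among all tested genes with LPS, 9.13% and 7.02% in dual against control lungs and 31.7% and 27.4% in dual against LPS lungs, and no list was tested for a difference from these shares. In a list of 12 genes linked to type 1 cells, 6 were higher and 6 lower with LPS, and 3 were higher and 5 lower in dual against LPS lungs. *Itgae*, the integrin of epithelium-bound cells, was at 2.79, 3.24 and 3.86 CPM in control, 0.475, 0.924 and 0.670 in LPS and 0.908 and 0.834 in dual lungs. It did not pass in dual against LPS lungs (0.33, adjusted p = 0.474). *Snx22* was at 28.9, 24.9 and 29.3 CPM in control, 2.37, 2.54 and 2.12 in LPS and 9.08 and 14.1 in dual lungs. Like *Rab7b* and *Wdfy4*, *Snx22* was higher in dual than in LPS lungs, at 2.305 (SE 0.21, adjusted p = 2.54e-05). *Cxcl9*, a chemokine that many cells make with interferon, rose by 9.78 with LPS (SE 0.48, adjusted p = 6.16e-07), and *Tap1*, a peptide transporter, by 3.84 (SE 0.17, adjusted p = 4.64e-07). Of 11 tested genes of type 2 cells, 3 were higher and 4 lower with LPS, with a median of -0.30, and 4 were higher and 2 lower in dual against control lungs. Among the higher was *Itgam*, an integrin of many myeloid cells, at 4.13 (SE 0.28, adjusted p = 3.95e-05). The lectin gene *Cd209a* was at 7.39, 8.96 and 8.05 CPM in control and 1.25, 0.635 and 0.893 in LPS lungs, and had 2 counts in both dual libraries together, so that control was 182-fold above the dual group (95% counting interval 50.3 to 1510; adjusted p = 0.000107). *Mgl2*, a lectin of type 2 cells and macrophages, fell by 3.45 with LPS (SE 0.27, adjusted p = 4.72e-06). Of 14 genes shared by conventional cells, 4 were higher and 3 lower with LPS, and 2 were higher and 7 lower in dual against LPS lungs. *Cd74*, the class II invariant chain, was at -1.23 in dual against LPS lungs (SE 0.36, adjusted p = 0.0153). Of 18 transcription factors of the lineage, 12 were higher and 2 lower with LPS, among them *Batf2*, which can stand in for BATF3, with 3.54 (SE 0.14, adjusted p = 2.98e-07). That list holds factors that other myeloid cells also make, and all 10 neutrophil markers were higher with LPS, with a summed level of 250, 140 and 145 CPM in control, 2509, 3263 and 2051 in LPS and 1972 and 2549 in dual lungs and *S100a9* as the most abundant. The part of neutrophil RNA in these counts was not tested.

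The genes whose values over the 8 mice were most like each member were sought among 15613 genes with a mean of at least 1 CPM, by the root mean square difference of centred log2 CPM. The nearest to *Clec9a* was *Gm33248* (0.166), followed by *Clec1a* (0.257). *Gata2* was nearest to *Zbtb46* (0.076), *Tigit* to *Batf3* (0.118) and *Il4ra* to *Irf8* (0.108). The nearest to *Irf4* was the immunoglobulin light chain segment *Igkv1-110* (0.463), a larger distance than for those genes.

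Promoter windows of 300 bases, 250 before to 50 after the gene start as the RefSeq table for GRCm38.p6 places it, came from that table and matched all 9 members in 10 windows. Each was found once by exact match on its own chromosome of GRCm39. Of these, 3 windows, for *Batf3*, *Zbtb46* and the second of *Irf8*, lie inside the gene as GENCODE M39 places it. The letters searched on both strands were GAAANNGAA (interferon-stimulated element core), GGAANNGAA (ETS and IRF composite core), TGANTCA (AP-1) and TTCNNNGAA (STAT, like AP-1 its own reverse complement), which 8.56%, 8.24%, 7.81% and 8.3% of 32851 windows in the table hold. *Irf8* and *Batf3*, which were higher with LPS, are shown because their windows hold TTCNNNGAA, with 2 matches and 1 match, in capitals. *Siglech*, which was not higher, also holds 1, while *Fscn1*, which was higher, and the second *Irf8* window hold none of the 4 patterns. The other matches are GAAANNGAA in the *Clec9a* window and TGANTCA in the *Zbtb46* window, 1 each, and both genes were lower with LPS. No match in these windows overlaps another, and a match describes letters in the window, not a site. The plus-strand windows lie at chr8:121462847-121463146 for *Irf8* and chr1:190830361-190830660 for *Batf3* in GRCm39.
Irf8: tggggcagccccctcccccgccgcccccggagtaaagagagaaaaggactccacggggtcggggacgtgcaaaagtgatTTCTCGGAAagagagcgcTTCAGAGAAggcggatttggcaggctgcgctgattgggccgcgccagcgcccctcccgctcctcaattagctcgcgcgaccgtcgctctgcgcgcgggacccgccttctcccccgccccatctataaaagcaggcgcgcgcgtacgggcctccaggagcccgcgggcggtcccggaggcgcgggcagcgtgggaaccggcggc
Batf3: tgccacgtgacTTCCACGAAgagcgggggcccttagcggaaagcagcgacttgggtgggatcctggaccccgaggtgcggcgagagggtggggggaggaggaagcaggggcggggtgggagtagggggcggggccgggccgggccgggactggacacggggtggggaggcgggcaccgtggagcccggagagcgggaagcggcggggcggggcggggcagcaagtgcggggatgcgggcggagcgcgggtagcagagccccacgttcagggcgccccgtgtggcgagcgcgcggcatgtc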

How the data were processed

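Lung RNA of 8 mice was sequenced. Per the submitters' processing notes, the authors used FastQC 0.11.9, Trim Galore, HISAT2 2.2.1 and featureCounts 2.0.1 with GRCm39, and deposited raw counts per gene. The annotation release, strand setting and handling of multi-mapped reads were not given in the sources used here. Of 55416 identifiers, 54749 matched GENCODE M39, and the other 667 held 0.0533% of counts.

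Counts were normalized by TMM and tested with quasi-likelihood models in edgeR 4.0.16 (R 4.3.3), after filterByExpr, with treatment group as the single factor over 8 libraries (5 residual degrees of freedom). Adjusted p-values are Benjamini-Hochberg values over 18560 genes, and standard errors come from log2 fold change and F. Groups whose libraries all had at most 3 counts are compared by counts with an exact 95% binomial interval. With groups of this size an exact permutation test reaches p = 0.1 at best, so none was used. On simulated counts for 18560 genes, 84.5% (LPS against control) and 72.5% (dual against control) of 200 genes changed by 2 on the log2 scale were recovered. In the data far more genes differed, with 32.6% called higher and 33.9% lower with LPS. The simulation therefore does not show what share of real changes was recovered here. From each marker list, at most 4 genes per comparison are named, the 2 with the highest level and the 2 with the smallest adjusted p. *Clec1a*, *Clec1b*, *Xcl1*, *Itgae*, *Rab7b*, *Wdfy4*, *Tlr3*, *Id2*, *Tcf4*, *Ly6d*, *Ccr7*, *Fdcsp* and *Glycam1* fall outside this rule. They were chosen after their values were seen. Members and lists were chosen with earlier results of these data known. By the methods 3 mice of each group were sequenced. The labels and a legend of the study give 2 dual mice, and 2 dual libraries were used. Alternatives were DESeq2 1.42.0, other scalings, filters and criteria, and leaving out each mouse.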

Additional observations from a re-analysis of the deposited data

How the results depend on the processing

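Of 411 values of single members under 16 alternatives, 372 kept their direction and their side of the threshold, 18 lost a call, 17 gained one and 4 changed sign. The sign changes were *Siglech* with LPS (0.048 with LPS mice 6 and 7 left out) and, without dual mouse 2, *Irf4* in dual against control (-1.14, up to 2.45 without mouse 5) and LPS lungs (-1.67, up to 1.93) and *Flt3* in dual against LPS lungs (-0.19, up to 1.53). Where 1 mouse of a group was left, it was assumed to vary like the other groups. With a fold over 2 and an unadjusted p under 0.05, 7450, 1944 and 6554 genes were called with LPS, with dual treatment and in dual against LPS lungs, and with the adjusted p 7279, 1327 and 6264, because these criteria add a fold minimum. With at least 10 counts in every library, 4 members were called with LPS and 1 with dual treatment. Genes under 10 counts in any library were then not tested, among them *Clec9a*, with 9 counts in LPS mice 1 and 6 and at least 1205 in control mice. Leaving out each mouse gave 1220 to 3601 genes and 1 to 5 members for the dual group against control, and the cause was not tested. Library size in place of TMM moved the median of all genes to -0.29 with LPS and 0.38 in dual against LPS lungs, and the share of higher genes among those called from 49.0% to 35.6% and from 53.6% to 71.0%. Upper-quartile factors moved the medians to -0.10 and 0.14. No member changed sign under these scalings. No paired analysis was possible because no pair of groups shares more than 1 mouse number. Depth limits *Xcr1* and *Siglech*, where 3 counts amount to 0.132 to 0.178 CPM.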
